A study of Mus musculus with 16 samples.

Results

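Base excision repair removes damaged bases from DNA in a relay. A DNA glycosylase lifts out the base, an endonuclease cuts the backbone at the bare sugar, a polymerase fills the gap, and a ligase seals it. Non-dividing neurons depend on this route for oxidised bases, and some of the mice studied were labelled as lacking Neil3, which encodes one of the glycosylases. The genes described here are the 9 that act after the glycosylase: Apex1 and Apex2, which cut the backbone, Parp1 and Xrcc1, which sense the break and hold the repair complex together, Polb and Fen1, which fill the gap and trim the displaced flap, Lig1 and Lig3, which seal the nick, and Aptx, which repairs failed ligations. They were picked by symbol and make up 9 of the 17986 genes listed for all libraries.

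Expression was measured by RNA sequencing of CA1, the output field of the hippocampus, cut by laser from 8 µm sections of frozen, unperfused brain. The mice were males aged 3 to 6 months on the C57Bl6 background, labelled wild type (WT) or N3 -/- (KO). They were taken either straight from the home cage (2 WT-labelled and 2 KO-labelled mice) or after spatial exploration (3 and 3). The exploration mice had spent 20 min per day for 1 week in an arena with sides of 50 cm and were killed 20 min after the final session. Values are FPKM, fragment counts scaled to transcript length and library depth, so levels can be compared between genes per length. Another 6 samples, whose source is given as learning, were not used here, and the way the Neil3 allele was made is not given in the sources used here.

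The Neil3 transcript was higher under the KO label than under the WT label, where loss of the transcript would make it lower. Neil3 stood at 0 FPKM in 4 of the 5 WT-labelled libraries and at 0.05 in the other one, and between 8.35 and 15.2 FPKM in all 5 KO-labelled libraries. The reason was not tested, and without the design of the allele it is not known whether the labels are wrong. Genotype directions below are therefore those of the labels, KO-labelled relative to WT-labelled. The libraries held an estimated 18600000 to 19900000 fragments each, so that for a transcript of 1 kb a single fragment adds 0.0519 FPKM. Markers of CA1 pyramidal cells were high, with 4 genes summing to 308 to 422 FPKM per library, and those of dentate granule cells summed to at most 2.06 FPKM. The 7 proliferation genes summed to 2.29 to 3.33 FPKM, mostly from Mcm2 (0.91 to 1.48) and Mcm5 (1.15 to 1.63), with Birc5 at up to 0.61 and Mki67 and Top2a at most 0.05. Home cage and exploration values were deposited as separate blocks, and whether these were normalized together is not stated, so exploration and block of values cannot be told apart. In tissue of mixed cells, fewer cells of a type and less RNA per cell also cannot be told apart.

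The genes spanned a wide range of levels in FPKM: transcripts of the main endonuclease, the gap-filling polymerase and the break sensor were abundant, and those of both ligases were low. Averaged over the 10 libraries, Apex1 was highest with 44.2 FPKM (SD 2.65, n = 10), followed by Polb with 38.8 (SD 4.88) and Parp1 with 37.7 (SD 4.61). These neighbours had overlapping ranges. Xrcc1, at 14.1 FPKM (SD 0.861), was separated from the genes above and below it in every library. Then came Aptx at 5.14 (SD 0.522), Fen1 at 4.99 (SD 0.491), Lig3 at 3.19 (SD 0.846) and Apex2 at 1.72 FPKM (SD 0.274), each overlapping its neighbour in the order. Lig1 was last at 0.89 FPKM (SD 0.143) and below every other gene of the set in all libraries. Apex1 exceeded 88.9% of the 17986 genes and Lig1 35.4%.

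**Figure D1:**
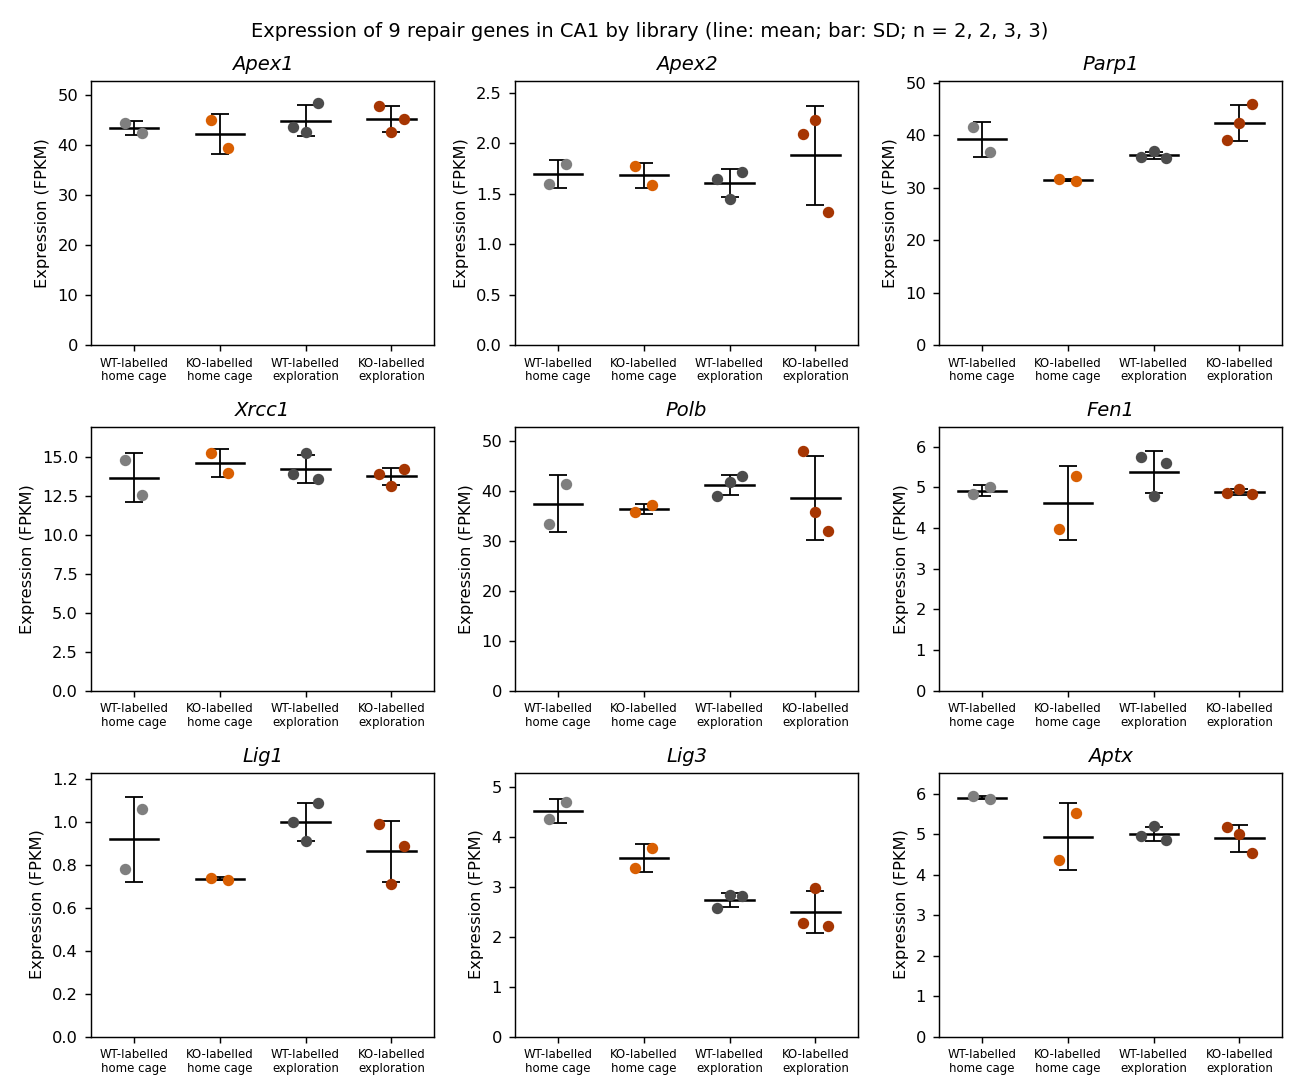
FPKM (y axis, from 0) of each of the 9 genes in every library, grouped by genotype label and environment (x axis), with points for libraries and bars for the group mean and SD. Lig3 sits higher in both home cage groups than in both exploration groups, and Parp1 is lowest in the KO-labelled home cage libraries and highest in the KO-labelled exploration libraries.

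Across 7 comparisons of the groups, Lig3 fell after exploration, Parp1 rose after exploration in KO-labelled mice, and no gene of the set was called between genotype labels. Each comparison was a limma test on log2(FPKM + 1) over 11892 genes, with a gene called at an adjusted p below 0.05 (Benjamini-Hochberg over all genes tested). Log2 changes and folds on this scale are those of FPKM + 1, so they understate the changes of genes at a few FPKM or less, such as Lig3. Groups of 2 or 3 libraries can lie apart without overlap by chance, and the share of all genes that do so was not counted. Between genotype labels, 0 of 9 were called in the home cage (3.57% of all genes were), 0 of 9 after exploration (0.597%) and 0 of 9 with both environments averaged (2.13%). In each of these 3 comparisons 1 gene of the set had an unadjusted p below 0.05: Parp1 in the first and second, and Lig3 in the average. Of all genes 18.3%, 17.2% and 20.2% did so in the same order, so nothing is read from these counts. Between environments, 1 of 9 was called in WT-labelled mice (6.31% of all genes), 2 of 9 in KO-labelled mice (28.6%) and 1 of 9 in the average (31.9%). As shares these are 11.1%, 22.2% and 11.1% of the set, and the last 2 lie below the share of all genes. The response to exploration differed between genotype labels for 0 of 9 genes (0.875% of all genes). An unadjusted p below 0.05 was found for Parp1 alone of the set, and for 16.1% of all genes. The median log2 change of the 9 was -0.08 between genotype labels in the home cage, against -0.02 for all genes, and 0.07 between environments in the average, against -0.03. How stable these counts were is given with the effects of processing, and leaving out 1 library moved the exploration counts by 1 or 2 genes.

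**Figure D2:**
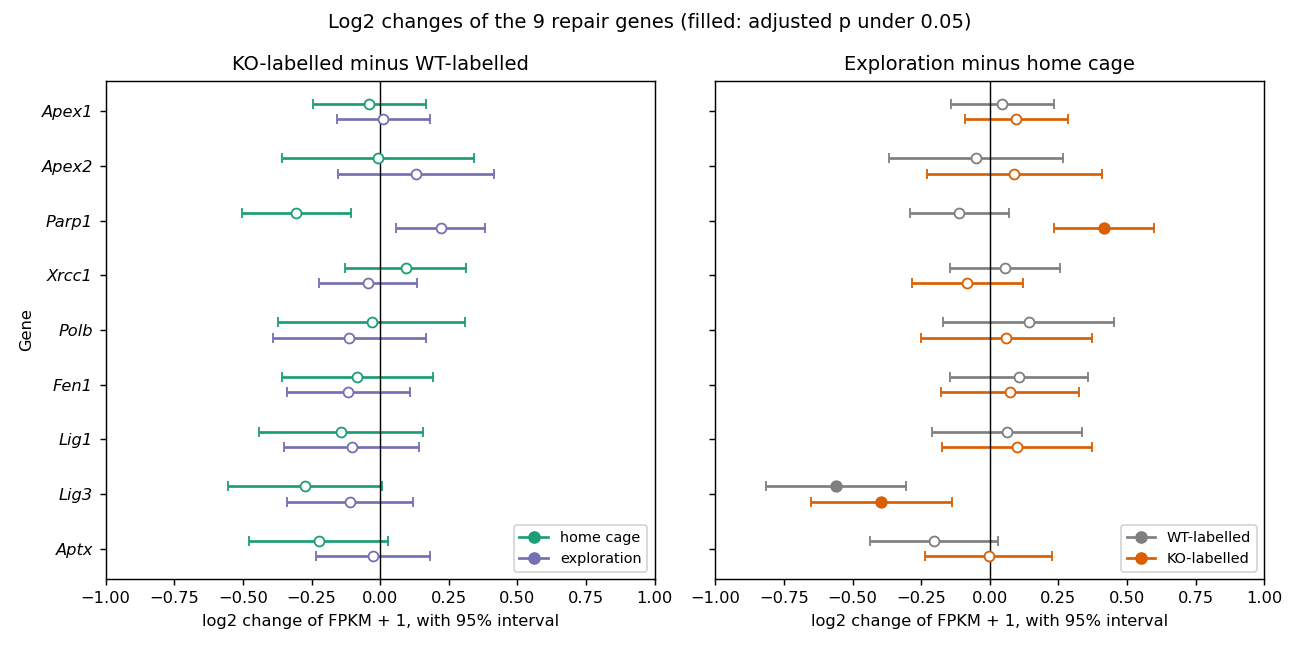
Log2 change on the log2(FPKM + 1) scale (x axis) with its 95% confidence interval for the 9 genes (y axis), between genotype labels within each environment (left) and between environments within each label (right), with filled points for genes called at an adjusted p below 0.05. The interval of Lig3 lies below 0 in the environment comparisons and that of Parp1 lies above 0 in the KO-labelled environment comparison. Between genotype labels the interval of Parp1 lies below 0 in the home cage and above 0 after exploration, with neither called. The intervals of the other 7 genes span 0.

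The sealing step held the largest change. Lig3 encodes DNA ligase III, the partner of Xrcc1 in the nucleus and the ligase of mitochondria, and lies at chr11:82781109-82804274 on the plus strand of GRCm38.p6 with 20 exons (gene ID 16882). Its levels were 4.35 and 4.69 FPKM in the WT-labelled home cage libraries, 3.37 and 3.77 in the KO-labelled home cage libraries, 2.58, 2.83 and 2.82 in the WT-labelled exploration libraries, and 2.27, 2.97 and 2.22 in the KO-labelled exploration libraries. Every home cage library was above every exploration library, whatever its genotype label. With the labels averaged, Lig3 fell by 0.48 on the log2 scale after exploration (SE 0.0831, 95% confidence interval -0.66 to -0.30), a fold of 0.718, with a limma adjusted p of 0.00218 that ran from 0.00179 to 0.0152 over 16 alternative settings. It fell by 0.56 in WT-labelled mice (SE 0.118, limma adjusted p = 0.0185) and by 0.40 in KO-labelled mice (SE 0.118, limma adjusted p = 0.028). These 2 within-label calls rested on few libraries: the first was lost without either WT-labelled home cage library or without WT-labelled exploration library 1 or 2 (adjusted p up to 0.197), and the second without KO-labelled home cage library 2 or KO-labelled exploration library 1 or 3 (up to 0.207). The drops themselves differed by 0.16 between labels (95% confidence interval -0.20 to 0.53, limma adjusted p = 0.67). Lig3 was also lower in the KO-labelled than in the WT-labelled home cage libraries without overlap, by 0.27 on the log2 scale (95% confidence interval -0.55 to 0.0082), but this missed the threshold (limma adjusted p = 0.287). Across all genes, Lig3 had a wider range of group means than 89.6% of those tested.

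Some markers of several cell types were called higher after exploration, where Lig3 was lower. The 4 oligodendrocyte genes summed to 123 to 147 FPKM in WT-labelled and 169 to 204 in KO-labelled home cage libraries, and to 177 to 338 and 215 to 244 after exploration, and 4 of 4 were called higher in the average. Of 4 CA1 pyramidal markers, 1 was called higher and 3 lower in the same comparison, with sums of 308 to 411 FPKM in the home cage and 312 to 422 after exploration. Both tested blood genes of 3 were called higher as well, with sums of 69.1 to 109 FPKM in the home cage and 115 to 218 after exploration. Called higher in the average, with none called lower, were also 2 of 4 astrocyte, 2 of 4 microglia, 2 of 6 interneuron and 2 of the 4 tested CA2 and CA3 markers. In either direction 31.9% of all genes were called in this comparison, so counts near that share are not read as a result. Within WT-labelled mice 3 oligodendrocyte, 2 astrocyte and 2 microglia markers were called higher, against 0 of each in KO-labelled mice. The median log2 changes of these lists in KO-labelled mice were 0.18, 0.05 and 0.03. In WT-labelled and KO-labelled mice, 2 and 1 blood, 1 and 1 interneuron, and 0 and 2 CA2 and CA3 markers were called higher. Of all genes 6.31% and 28.6% were called in these 2 comparisons, in either direction. Microglia markers summed to 22.8 to 33.6 FPKM in the home cage and 29.2 to 35.0 after exploration, and interneuron markers to 173 to 189 and 208 to 287. The part of these cells in the Lig3 difference was not tested.

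The other ligase of the set, DNA ligase I, acts in DNA replication and in the long-patch branch. Lig1 (chr7:13277175-13311426, plus strand, gene ID 16881) was measured at 0.78 and 1.06 FPKM in the WT-labelled home cage libraries, 0.74 and 0.73 in the KO-labelled ones, 1, 0.91 and 1.09 in the WT-labelled exploration libraries and 0.99, 0.71 and 0.89 in the KO-labelled ones. It entered the test through 3 WT-labelled libraries at 1 FPKM or more. An estimated 42 to 66 fragments lie behind each value, so counting alone gives a relative error of up to 15.5%. The KO-labelled home cage libraries were the lower pair without overlap, with a log2 difference of -0.14 (95% confidence interval -0.44 to 0.16, limma adjusted p = 0.637). Between environments the average difference was 0.08 (95% confidence interval -0.11 to 0.27, limma adjusted p = 0.506), on a scale that compresses changes at this level more than for Lig3.

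Within a library, the balance of Lig3 and Lig1 can be read as a ratio that does not depend on the scaling of the library. Lig3 stood at 5.001 times Lig1 in WT-labelled home cage mice (SD 0.815, n = 2) and at 4.86 times in KO-labelled ones (SD 0.432, n = 2), against 2.76 (SD 0.304, n = 3) and 2.99 (SD 1.04, n = 3) after exploration. All 4 home cage libraries lay between 4.43 and 5.58 and all 6 exploration libraries between 2.29 and 4.18. The log2 difference between environments was -0.80, with a two-sided exact permutation p of 0.02 within genotype labels and 0.06 after adjustment over 6 ratio tests, the smallest raw p possible being 0.01. Between genotype labels the log2 difference was 0.02 (exact permutation p = 0.933). The ratio of Xrcc1 to Lig3, the scaffold to its ligase, moved the other way, from 3.04 (SD 0.506, n = 2) and 4.12 (SD 0.574, n = 2) in the home cage to 5.19 (SD 0.331, n = 3) and 5.65 (SD 1.07, n = 3) after exploration. Its log2 difference was 0.61 (exact permutation p = 0.02, adjusted 0.06). Both ratios contain Lig3, so they are not separate evidence. Leaving out a library leaves fewer ways to permute the labels, which raises the smallest p possible between environments. The adjusted p-values of such fits therefore cannot be compared with 0.06. Without KO-labelled exploration library 2, which had the highest Lig3 of the exploration libraries, the adjusted p of both was 0.0333, the only alternative below 0.05. Leaving out the same KO-labelled exploration library 2 also gave 0.0333 for Xrcc1 over Lig3 between genotype labels (log2 difference 0.36, against 0.27 and an adjusted p of 0.267 with all libraries).

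**Figure D3:**
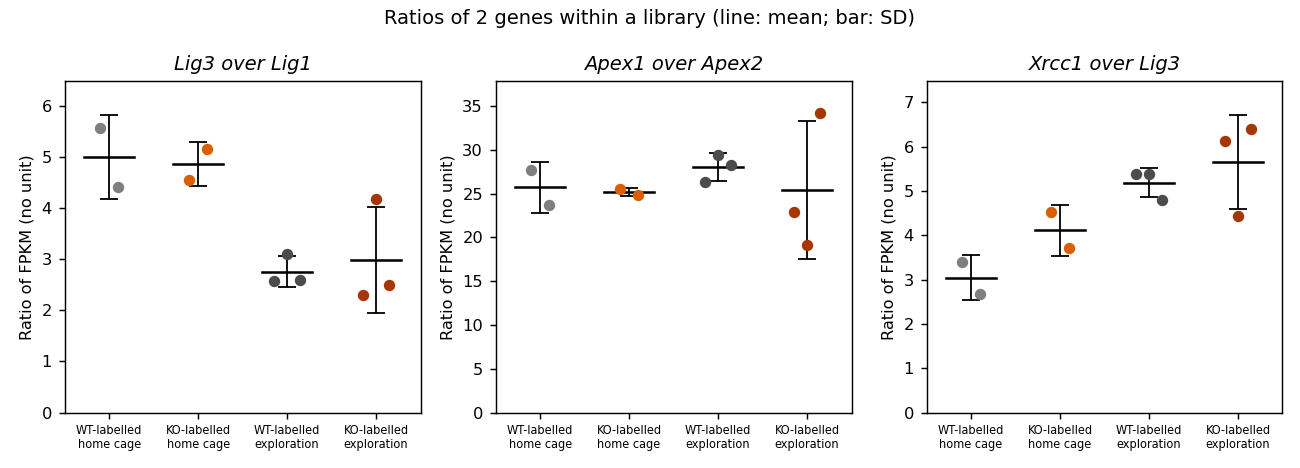
Ratio of FPKM values within each library (y axis, from 0) for Lig3 over Lig1, Apex1 over Apex2 and Xrcc1 over Lig3, by group (x axis), with points for libraries and bars for the group mean and SD. Home cage libraries lie above exploration libraries for Lig3 over Lig1, with the highest exploration library at 4.18 and the lowest home cage library at 4.43, and no such separation is seen for Apex1 over Apex2.

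Parp1 encodes the sensor that binds strand breaks and builds poly(ADP-ribose) chains, which recruit Xrcc1. It lies at chr1:180568891-180600999 on the plus strand with 23 exons (gene ID 11545). Its levels were 41.6 and 36.9 FPKM in the WT-labelled home cage libraries, 31.7 and 31.3 in the KO-labelled home cage libraries, 35.9, 37.0 and 35.7 in the WT-labelled exploration libraries, and 39.0, 42.4 and 45.9 in the KO-labelled exploration libraries. The KO-labelled libraries were below all WT-labelled ones in the home cage and above all WT-labelled ones after exploration. With an estimated 2300 to 3300 fragments behind each value, counting error is 1.75% to 2.11%. The SD between mice was 8.48% of the mean in the WT-labelled home cage group and 8.09% in the KO-labelled exploration group. It was 0.831% in the KO-labelled home cage group and 1.92% in the WT-labelled exploration group, not above the upper counting error. In KO-labelled mice Parp1 rose by 0.42 on the log2 scale after exploration (SE 0.0828, 95% confidence interval 0.23 to 0.60), a fold of 1.33, with a limma adjusted p of 0.00514. This call was lost in 1 of 18 alternative settings, the one that left out KO-labelled home cage library 2 (0.41, adjusted p = 0.0577). In WT-labelled mice the log2 change was -0.11 (95% confidence interval -0.29 to 0.07, limma adjusted p = 0.458). The difference between these responses was 0.53 (SE 0.117, 95% confidence interval 0.27 to 0.78), with an unadjusted limma p of 0.000778 and an adjusted p of 0.0579, just short of the threshold. Leaving out KO-labelled exploration library 1, the lowest of its group, gave 0.58 and an adjusted p of 0.023, and the adjusted p reached 0.249 under other settings. The genotype differences within each environment, -0.31 in the home cage (95% confidence interval -0.50 to -0.11) and 0.22 after exploration (0.059 to 0.38), had limma adjusted p-values of 0.0929 and 0.173.

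Some markers of other cells differed between the same groups. The 5 genes listed for CA2 and CA3 pyramidal cells, the neighbouring hippocampal fields, summed to 110 to 111 FPKM in the KO-labelled home cage libraries and to 171 to 264 after exploration, and 2 of the 4 tested, Pcp4 and Bok, were called higher there. Cdh24, of the same list, was lower without overlap, at 1.54 and 1.58 FPKM before and 1.23, 1.23 and 0.83 after, and was not called (limma adjusted p = 0.151). In WT-labelled mice the sums were 121 to 229 and 180 to 195 FPKM, and Iyd was at most 0.18 FPKM throughout. Of 4 CA1 markers 1 was called higher and 3 lower in KO-labelled mice after exploration. In this comparison 28.6% of all genes were called, in either direction. Astrocyte markers summed to 51.7 to 63.9 FPKM in KO-labelled against 30.3 to 31.6 in WT-labelled home cage libraries, with 2 of 4 called higher (3.57% of all genes were called). After exploration they summed to 48.7 to 57.1 against 37.2 to 50.5 FPKM, with 0 of 4 called (0.597% of all genes) and all 4 log2 differences above 0. The log2 differences of the 4 microglia markers were above 0 in both environments, with 1 called in the home cage and 0 after exploration. Those of the 4 oligodendrocyte markers were all above 0 in the home cage (median 0.44). After exploration 0 of 4 were (median -0.13), and none was called in either environment. Of the 4 CA1 markers, Wfs1 was called lower under the KO label in the home cage. It stood at 127 and 64.9 FPKM in KO-labelled against 219 and 192 in WT-labelled libraries, while 3 CA1 markers had log2 differences above 0. After exploration 1 of 4 CA1 markers was called lower and 0 had a log2 difference above 0. The part of these cells in the Parp1 values was not tested.

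The promoters of the 2 genes that changed are shown because both hold the same short motif close to the start of transcription. Each is the 250 bases before the gene's start in RefSeq for GRCm38.p6, written 5′ to 3′ on the plus strand, at chr11:82780859-82781108 for Lig3 and chr1:180568641-180568890 for Parp1. Capitals mark matches to the motifs searched.
Lig3: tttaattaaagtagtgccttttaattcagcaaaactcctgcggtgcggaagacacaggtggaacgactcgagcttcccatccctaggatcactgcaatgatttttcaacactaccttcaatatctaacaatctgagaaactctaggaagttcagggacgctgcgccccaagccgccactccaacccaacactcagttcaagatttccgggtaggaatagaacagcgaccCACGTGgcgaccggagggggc
Parp1: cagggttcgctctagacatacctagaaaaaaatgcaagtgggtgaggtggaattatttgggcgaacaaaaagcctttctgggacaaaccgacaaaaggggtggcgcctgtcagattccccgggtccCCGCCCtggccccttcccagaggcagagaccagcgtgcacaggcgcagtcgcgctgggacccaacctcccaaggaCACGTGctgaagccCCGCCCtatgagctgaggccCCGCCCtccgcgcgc
Lig3 has 1 match to the E-box CACGTG, starting 21 bases before the start, and 12 CpG sites. Parp1 has 1 E-box, 49 bases before the start, 3 matches to the GC box GGGCGG on the minus strand, 124, 35 and 15 bases before it, and 16 CpG sites. The median over all RefSeq promoter windows of this length was 6 CpG sites. The E-box occurs in 6.02% of these 32851 windows and the GC box in 32.7%. Windows were found for 7 of the 9 genes, and the E-box was also present in those of Apex1 and Fen1, which were not called in any of the 7 comparisons. Searched on both strands as well were the cyclic AMP response element TGACGTCA (1.55% of windows), AP-1 as TGANTCA (6.75%) and CCAAT (33.8%), none of which occurs in the Lig3 or Parp1 window. A match of letters describes the sequence and is not a measured binding site.

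The remaining 7 genes, Lig1 among them, passed in 0 of their 49 tests, with a largest log2 difference of 0.22 in either direction and 95% confidence intervals within -0.52 and 0.59. Apex1 encodes the main endonuclease for abasic sites and lies at chr14:50924949-50927188 on the plus strand (gene ID 11792). It was measured at 44.4 and 42.4 FPKM in the WT-labelled home cage libraries, 45.1 and 39.5 in the KO-labelled ones, 43.6, 42.7 and 48.4 in the WT-labelled exploration libraries, and 47.9, 42.7 and 45.2 in the KO-labelled ones. The 4 groups overlapped, and the averaged log2 differences were -0.01 between genotype labels (95% confidence interval -0.15 to 0.12) and 0.07 between environments (-0.06 to 0.20). These intervals exclude a change as large as that of Lig3. Of the exonic bases of Apex1, 70.8% are shared with Pip4p1 on the opposite strand, listed as Tmem55b in the deposited values. The use of strand in counting is not given in the sources used here, so the Apex1 level is uncertain. Its relative Apex2, a weaker endonuclease with exonuclease activity, lies at chrX:150426974-150588206 on the minus strand (gene ID 77622) and was far lower, at 1.6 and 1.79, 1.77 and 1.59, 1.65, 1.45 and 1.71, and 2.09, 2.23 and 1.32 FPKM in the same order of groups. The KO-labelled exploration group held both the highest and the lowest of these. Apex1 exceeded Apex2 by 19.2 to 34.2 times across libraries, with no call between genotype labels (log2 difference -0.11, exact permutation p = 0.467) or environments (0.05, exact permutation p = 0.78).

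Polb encodes DNA polymerase β, which trims the sugar remnant and fills the gap, and lies on chromosome 8, 30.9 Mb from Neil3, at chr8:22628119-22653464 on the minus strand (gene ID 18970). Its values were 33.5 and 41.5 FPKM, then 35.8 and 37.2, in the WT-labelled and KO-labelled home cage libraries, and 39.0, 41.9 and 43.0, then 48.1, 35.9 and 32.0, in the corresponding exploration libraries. KO-labelled exploration libraries again held both extremes, and Polb varied within groups more than 84.9% of genes tested (residual SD 0.196 on the log2 scale). The averaged log2 differences were -0.07 between genotype labels (95% confidence interval -0.29 to 0.15) and 0.10 between environments (-0.12 to 0.32). Fen1, the flap endonuclease of the long-patch branch (chr19:10199132-10204393, minus strand, gene ID 14156), ranged from 3.98 FPKM in a KO-labelled home cage library to 5.75 in a WT-labelled exploration library. Its averaged log2 differences were -0.10 (95% confidence interval -0.28 to 0.08) between genotype labels and 0.09 (-0.09 to 0.27) between environments. With quantile normalization the latter became 0.23 and was called (limma adjusted p = 0.0379).

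Xrcc1 is the scaffold that binds Polb, Lig3 and Parp1 proteins, and it was the steadiest of the set, from 12.6 to 15.2 FPKM or 1.21 times from lowest to highest (chr7:24546699-24573438, plus strand, gene ID 22594). Its group means were 13.7 FPKM (SD 1.56, n = 2) and 14.6 (SD 0.884, n = 2) in WT-labelled and KO-labelled home cage mice, and 14.2 (SD 0.892, n = 3) and 13.8 (SD 0.544, n = 3) after exploration. Only 4.13% of tested genes had a smaller range of group means on the log2 scale. Its ligase partner Lig3 spanned 2.11 times over the same libraries, the widest ratio of the set. Aptx encodes aprataxin, which removes the AMP left by an aborted ligation and binds Xrcc1 protein (chr4:40682078-40721667, minus strand, gene ID 66408). It was measured at 5.94 and 5.88 FPKM in WT-labelled home cage libraries, and between 4.36 and 5.53 FPKM in the other 8. The WT-labelled home cage pair was above every other library. Its log2 difference was -0.22 between genotype labels in the home cage (95% confidence interval -0.48 to 0.03, limma adjusted p = 0.336) and -0.20 between environments in WT-labelled mice (-0.43 to 0.03, limma adjusted p = 0.283), so neither was called.

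**Figure D4:**
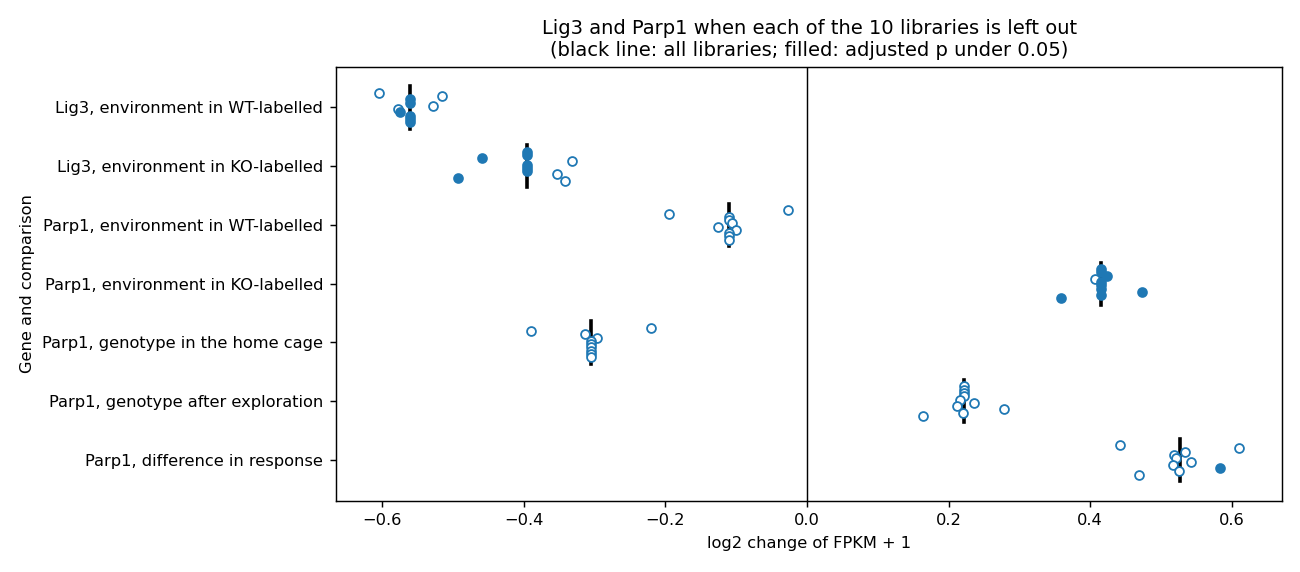
Log2 change on the log2(FPKM + 1) scale (x axis) of Lig3 in 2 and Parp1 in 5 comparisons (y axis) with each library left out in turn, with a black line for all libraries, 1 point for each left-out library, and filled points where the limma adjusted p was below 0.05. All values keep their sign, the Lig3 change in WT-labelled mice runs from -0.60 to -0.52, and the Parp1 difference in response runs from 0.44 to 0.61.

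Around these 9 genes, the lists for other steps of the pathway held 7 tested glycosylases of 10, 8 tested strand-break partners of 9 and 12 tested long-patch genes of 14. Between genotype labels and in the difference in response 0 were called in each list, where 0.597% to 3.57% of all genes were, so lists of this size would hold few calls at that share. At an unadjusted limma p below 0.05 with environments averaged there were 4 glycosylases, 1 strand-break partner and 1 long-patch gene, against 20.2% of all genes. The 4 glycosylases had log2 differences of -0.26 (Mbd4), -0.13 (Tdg), -0.26 (Ogg1) and -0.30 (Neil1), with limma adjusted p-values of 0.167 to 0.226, and the list's median was -0.13, against -0.07 for the 9 genes and -0.01 for all genes. Neil1 and Ogg1 encode glycosylases for oxidised bases and were named after their values were seen. Between environments, with labels averaged, 2 of 7 glycosylases were called and both fell: Mbd4 by 0.37 (limma adjusted p = 0.0176) and Tdg by 0.19 (limma adjusted p = 0.0236), which remove thymine or uracil from mismatches with guanine. Of the strand-break partners 2 of 8 rose, Hmgb1, a chromatin protein, by 0.21 (limma adjusted p = 0.0124) and Adprhl2, which removes ADP-ribose from serine, by 0.26 (limma adjusted p = 0.0268). Of the long-patch genes 2 of 12 rose and 2 fell. Pcna, the sliding clamp that holds Fen1 and Lig1 proteins on DNA, rose by 0.17 (limma adjusted p = 0.0373) and Pole4, a small polymerase epsilon subunit, by 0.27 (limma adjusted p = 0.0234). Pold3, a polymerase delta subunit, fell by 0.36 (limma adjusted p = 0.0214) and Rfc2, a clamp loader subunit, by 0.24 (limma adjusted p = 0.0321). In KO-labelled mice alone Rfc2 fell by 0.49 (limma adjusted p = 0.00803) and Pole4 rose by 0.33 (limma adjusted p = 0.0448). Each kept its direction under 2 other scalings and without any 1 library, but the calls of Hmgb1, Mbd4, Tdg, Pcna, Rfc2 (average) and Pole4 (KO-labelled mice) were lost under 1 of the scalings. With no filter the average call of Rfc2 (limma adjusted p = 0.0539) and the KO-labelled call of Pole4 (0.0799) were lost. Of 10 fits without 1 library, the averaged calls were lost in 8 for Pcna, 5 for Adprhl2, 4 for Rfc2, 3 for Pole4 and for Tdg, 2 for Mbd4 and for Pold3, and 1 for Hmgb1, and the KO-labelled calls in 6 for Pole4 and 1 for Rfc2. Of all genes 31.9% were called in the averaged comparison, so nothing is read from the shares of these lists.

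By profile over the 10 libraries, the genes most like Lig3 were Ercc6l2, Xrn1 and Slc8a1, with root mean square differences of 0.0531, 0.0627 and 0.0671 on the centred log2(FPKM + 1) scale. The genes most like Parp1 were Nxpe3, Emx2 and Stat6, with differences of 0.0537, 0.0648 and 0.0688. These were the 3 nearest of all tested genes for each, with no test attached.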

How the data were processed

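Each mouse gave 1 RNA library, sequenced as 100 bp read pairs on BGISEQ-500 (per the labels). The authors deposited FPKM per gene and library, in 2 blocks of 19156 (exploration) and 18257 genes (home cage). Matching by NCBI gene ID left 17986 genes. Per the submitters' processing notes, HISAT, StringTie, GATK, Bowtie2 and RSEM were used with GRCm38 or mm10. Their roles, versions and use of strand are not given in the sources used here.

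FPKM are not counts, so limma 3.58.1 (R 4.3.3, with variance trend) was run on log2(FPKM + 1) over the 11892 genes that reached 1 FPKM in 2 or more libraries. The fit held 4 group means, with 6 residual degrees of freedom. All 9 genes passed the filter. The script was tested on simulated data. Ratios within libraries were compared by two-sided exact permutation within the other factor. Limma p-values set each difference against the spread between mice within groups, pooled over the 4 groups and drawn toward a trend over all genes. Between environments, neither these nor the permutation p-values can tell exploration from the block of values.

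Depth was estimated from the spacing of values between 0.08 and 0.6 FPKM, with transcript lengths from GENCODE less 100 nt. Counting errors from it cover counting only. Gene positions and promoters came from RefSeq for GRCm38.p6, and all 9 gene IDs matched. Strands, exons and exon overlaps came from GENCODE, with exons taken from transcripts matched to RefSeq.

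The genes and lists were chosen with earlier results of these data known. Named by rule were the 9 genes, Neil3, up to 5 called genes per pathway list and comparison, and the 3 genes nearest in profile to the 2 members with the widest range of group means. As alternatives, the pseudocount was set to 0.1, the filter was dropped or raised to 5 FPKM, values were rescaled by size factors or quantiles, variances were fitted robustly or with no trend, only the groups compared were fitted, and each library was left out.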

Additional observations from a re-analysis of the deposited data

Results flagged for a closer look

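Parp1 differed between genotype labels in opposite directions in the home cage and after exploration. Every KO-labelled home cage library (31.3 and 31.7 FPKM) was below both WT-labelled ones, and every KO-labelled exploration library (39.0 to 45.9 FPKM) was above all WT-labelled ones. The difference between the 2 genotype contrasts was 0.5265 on the log2 scale (limma adjusted p = 0.0579 over all genes), which missed the threshold of 0.05. The home cage groups hold 2 mice each, and the environments come from separately deposited blocks. Parp1 was flagged because its libraries separated in opposite directions, so the separation is not evidence apart from the flag. How many of all genes separate this way was not counted.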

How the results depend on the processing

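The values limit single genes as follows: Lig1 and Apex2 rest on few fragments, each home cage group holds 2 mice, and with 1 left out the remaining one is assumed to vary like the other groups. The count of 0 of the 9 genes called between genotype labels held under every alternative run. Between environments in WT-labelled mice the count of 1 became 0 with the filter at 5 FPKM, which removed Lig3, Lig1 and Apex2 from the test, and ran from 0 to 1 without 1 library. In KO-labelled mice the count of 2 became 1 with no filter, with that filter, with quantile normalization and with only the groups compared, and ran from 0 to 2 without 1 library. In the average the count of 1 became 0 with the filter at 5 FPKM and 2 with size factors (Parp1, limma adjusted p = 0.0384) or quantile normalization (Fen1), and ran from 1 to 2 without 1 library (Parp1, adjusted p = 0.0265 without KO-labelled exploration library 1). In the difference in response the count of 0 ran from 0 to 1. Lig3 in KO-labelled mice missed the threshold with no filter (limma adjusted p = 0.0537), quantile normalization (0.169) and only the groups compared (0.0954). For these results the cause was not tested, apart from the genes the filter removed. Without 1 library, the log2 ratio of Lig3 to Lig1 ran from -0.94 to -0.72 between environments and from -0.12 to 0.10 between genotype labels, where it was -0.068 from FPKM + 1. That of Xrcc1 to Lig3 ran from 0.53 to 0.70 and from 0.19 to 0.36, and that of Apex1 to Apex2 between environments from -0.068 to 0.14. No called change reversed. Changes near 0, none of them called, changed sign in places. With quantile normalization these were Apex1 (-0.0090) and Aptx (0.023) between genotype labels after exploration, Apex2 between environments in WT-labelled mice (0.035), Aptx in KO-labelled mice (0.15), and Xrcc1 (0.016) and Aptx (0.035) in the average. With size factors they were Aptx in KO-labelled mice (0.048) and Xrcc1 in the average (0.032). The other sign changes came from leaving out 1 library. Between genotype labels in the home cage, the ranges were Apex2 -0.059 to 0.043, Polb -0.18 to 0.12, Xrcc1 -0.015 to 0.20, Fen1 -0.25 to 0.083, Apex1 -0.13 to 0.055. Between genotype labels after exploration, the ranges were Apex1 -0.028 to 0.067, Xrcc1 -0.075 to 0.0033, Polb -0.28 to 0.0095, Aptx -0.060 to 0.020. Between genotype labels in the average, the ranges were Apex1 -0.060 to 0.034, Parp1 -0.084 to 9.9e-05, Polb -0.15 to 0.0036, Xrcc1 -0.030 to 0.079. Between environments in WT-labelled mice, the ranges were Polb -0.009 to 0.29, Lig1 -0.044 to 0.17, Apex2 -0.10 to 0.00051, Xrcc1 -0.053 to 0.16, Apex1 -0.0088 to 0.080. Between environments in KO-labelled mice, the ranges were Fen1 -0.092 to 0.24, Aptx -0.15 to 0.14, Polb -0.10 to 0.18, Apex2 -0.00055 to 0.24. Between environments in the average, the ranges were Apex2 -0.025 to 0.094, Xrcc1 -0.067 to 0.041. In the difference in response, the ranges were Polb -0.24 to 0.070, Lig1 -0.067 to 0.14, Apex1 -0.043 to 0.15, Fen1 -0.20 to 0.13. Fits of only the groups compared were not run for the averages or the difference in response. No paired analysis was possible because the labels number no mice as pairs across groups.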

Other observations

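Tmem55b, whose exons lie opposite most of those of Apex1, was looked at after its overlap was seen. It stood at 43.0 and 41.7 FPKM in the WT-labelled home cage libraries, 43.1 and 40.2 in the KO-labelled ones, 46.6, 44.0 and 48.2 in the WT-labelled exploration libraries and 50.2, 40.8 and 41.6 in the KO-labelled ones, a level close to that of Apex1 in each group.

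Bok, one of the genes listed for CA2 and CA3 pyramidal cells, was at 4.53 and 4.99 FPKM in the KO-labelled home cage libraries and between 26.8 and 32.4 FPKM in the KO-labelled exploration libraries. Its response to exploration differed between genotype labels by 1.84 on the log2 scale (limma adjusted p = 0.0496). The choroid plexus gene Ttr stood at 219 FPKM in WT-labelled home cage library 1 and at 118 and 93.6 in WT-labelled exploration libraries 1 and 2, against at most 4.24 in the other 7 libraries.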
